A study of Mus musculus with 20 samples.

Results

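Il6, Lif and Il11 encode cytokines of the gp130 family, and their transcripts were followed in mouse embryonic fibroblasts that carried or did not carry the RelA-TA-KI allele. The members are the 3 rows of the deposited count table whose Ensembl identifiers map to these symbols, out of 45706 rows in all. All 3 were among the 14023 genes tested. Il11 entered the test only through 2 knock-in libraries at 1 CPM (counts scaled to the library total) or more, so nothing is supported below with its fold changes.

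The family is named for gp130, the shared receptor chain encoded by Il6st. Interleukin 6 and interleukin 11 bind their own receptors, encoded by Il6ra and Il11ra1, before they engage gp130, and leukaemia inhibitory factor, the product of Lif, pairs gp130 with the chain encoded by Lifr. The chains signal through JAK kinases to the transcription factor STAT3, which induces the feedback inhibitor Socs3. In stromal cells such as fibroblasts, Il6 and Lif are known targets of inflammatory signals that act through NF-kB, a family of transcription factors that includes RelA and c-Rel, and interleukin 6 drives the acute phase response.

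The cells were primary embryonic fibroblasts from C57BL/6 mice, and every culture lacked c-Rel (crel-/-), so no library comes from cells with intact c-Rel. The other genotype, crel-/-RelA-TA-KI, carried a knock-in at Rela on top of that and is called the knock-in below. What TA abbreviates is not stated in the labels. After overnight starvation in 0.5% serum, cells of each genotype were taken unstimulated (0 h) or after 0.5, 1 or 3 h with IL-1b (interleukin 1 beta, 10 ng/ml), LPS (bacterial lipopolysaccharide, 100 ng/ml) or TNF (tumour necrosis factor, 10 ng/ml), with 1 library for each genotype, agent and time. No replicate, culture or embryo is named in the labels. The p-values below thus measure departures of these 20 libraries from each fitted model. Such departures may be technical and may also take in responses that are unequal in the genotypes. An effect of the allele and any difference between the cell preparations of the genotypes cannot be told apart.

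The libraries held 9248151 to 12574135 counts. Levels are CPM of a total rescaled by TMM, whose factor was 0.723 and 0.732 for LPS 3 h and at least 0.979 for the other 18 libraries. The LPS 3 h libraries therefore stood apart in composition. The detection floor, taken as 3 counts in a library, lay between 0.222 and 0.435 CPM. Rel transcripts were present in all libraries (16.2 to 62.0 CPM in crel-/- and 16.5 to 34.9 CPM in knock-in libraries), so counts over the whole gene do not check its deletion, and Rela lay between 72.7 and 354 CPM. All 10 fibroblast markers had counts in every library, and so did the 6 macrophage markers, whose summed level ran from 1673 to 3588 CPM and was led by Lyz2, with a median of 1366 CPM. The 4 endothelial markers summed to 76.1 CPM at most, with Kdr (6.59 to 69.7 CPM) and Tek (3.54 to 9.15 CPM) in all 20 libraries and Pecam1 at no more than 0.960 CPM. The 5 epithelial markers summed to 1.35 to 6.53 CPM and the 5 neural and Schwann markers to 4.46 to 63.7 CPM.

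The promoter sequences of Il6 and Lif are shown because the study asks how target genes of RelA are activated and both genes rose under LPS. They are the 250 bases before the RefSeq start of each gene on GRCm38.p6, with matches to the motifs searched in capitals. For Lif this start is at chr11:4257568, so the window runs into the gene as placed below, from 4257557.
Il6, chr5:30012864-30013113, plus strand: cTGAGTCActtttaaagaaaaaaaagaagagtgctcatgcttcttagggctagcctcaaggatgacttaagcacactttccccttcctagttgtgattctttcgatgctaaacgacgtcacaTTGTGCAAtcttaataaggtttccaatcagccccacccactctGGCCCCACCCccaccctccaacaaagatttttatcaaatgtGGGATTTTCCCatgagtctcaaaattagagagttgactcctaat
Lif, chr11:4257318-4257567, plus strand: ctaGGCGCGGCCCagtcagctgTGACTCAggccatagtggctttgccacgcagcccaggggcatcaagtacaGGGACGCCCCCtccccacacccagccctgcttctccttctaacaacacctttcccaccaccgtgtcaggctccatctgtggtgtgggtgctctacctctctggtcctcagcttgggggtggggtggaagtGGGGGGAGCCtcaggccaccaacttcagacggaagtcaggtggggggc
The search covered both strands for a loose kB form (GGG, any 5 bases, CC), the NF-kB consensus, AP-1 (TGANTCA), the cyclic AMP response element (TGACGTCA), a C/EBP form (TTNNGNAA) and the TATA box (TATAAA). Matches to the first 2 overlap by construction. Only the Il6 window held the NF-kB consensus, as GGGATTTTCC from 44 to 35 bases before the start, and 3.90% of 32851 mouse promoter windows of this length hold it. The Il6 window also held an AP-1 match, TGAGTCA, from 249 to 243 bases before the start and a C/EBP match, TTGTGCAA, from 128 to 121. The Lif window held the AP-1 match TGACTCA from 228 to 222 bases before the start. The loose kB form, which 45.8% of windows hold, had 4 overlapping or separate matches in the Lif window and 3 in the Il6 window. Of these, GGCCCCACCC in the Il6 window lay from 85 to 76 bases before the start. AP-1 matches occur in 6.75% of windows and the C/EBP form in 36.9%. These matches describe letters in a window, and whether a factor binds them was not tested.

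Il6 (ENSMUSG00000025746.9) lies at chr5:30013114-30019981 on the plus strand of mm10, with 2428 bases of exon in the deposited table. Lif (ENSMUSG00000034394.12) lies at chr11:4257557-4272514 on the plus strand, with 4350 bases, and Osm, another gp130 cytokine gene, ends 16531 bases before it on the same strand. Il11 (ENSMUSG00000004371.12) lies at chr7:4773055-4782857 on the minus strand, with 1330 bases.

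Il6 was close to the floor in unstimulated cells and reached its highest level after 3 h of LPS in both genotypes. In crel-/- cells it had 4 counts at 0 h (0.322 CPM), and then 5, 19 and 2342 counts after 0.5, 1 and 3 h of LPS (0.453, 1.85 and 339 CPM). In knock-in cells it had 0 counts at 0 h, where the floor of 3 counts lay at 0.255 CPM and the 95% counting interval reached 0.313 CPM. It had 4, 7 and 1467 counts under LPS in these cells (0.386, 0.749 and 183 CPM). Both LPS 3 h libraries lay above every other library, and the rise came between 1 and 3 h in each genotype. Over 0 h, the level at 3 h was 1052-fold higher in crel-/- cells (95% counting interval 410 to 3866). In knock-in cells it was 721-fold above the floor of 3 counts at 0 h, which is not the limit of a counting interval. Counting error is all that such intervals and floors take in, because reads copied by PCR, with no molecular identifiers, are not independent molecules.

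The largest ratio of Il6 between genotypes was in the pair at 3 h of IL-1b. In crel-/- cells, Il6 had 33, 36 and 297 counts after 0.5, 1 and 3 h of IL-1b (3.27, 2.90 and 29.2 CPM). In knock-in cells it had 16, 12 and 5 counts (1.43, 1.07 and 0.399 CPM). At 0.5 and 1 h the crel-/- level was 2.29-fold and 2.72-fold the knock-in level, beside 2.47-fold at LPS 1 h and 2.48-fold at TNF 1 h. At 3 h it was 73.3-fold above the knock-in level (counting interval 31.1 to 227), and among the 14023 genes tested Il6 had the 8th lowest knock-in over crel-/- ratio in this pair, where 176 genes were at least 4-fold lower in the knock-in. The knock-in level at 3 h was 0.374 times that at 1 h (interval 0.103 to 1.14), while the crel-/- level rose 10.1-fold over the same step (7.12 to 14.7).

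Il6 stayed below 4 CPM under TNF in both genotypes. The counts at 0.5, 1 and 3 h were 50, 18 and 25 in crel-/- cells (3.70, 1.67 and 2.14 CPM) and 27, 8 and 28 in knock-in cells (2.27, 0.675 and 2.69 CPM). From 0.5 to 1 h the level fell 2.21-fold in crel-/- (1.27 to 4.03) and 3.37-fold in knock-in cells (1.49 to 8.59). At 3 h the knock-in library was the higher, 1.26-fold, and the counting interval of 0.706 to 2.24 includes equality. In order of level over the 20 libraries, the LPS 3 h libraries and the crel-/- IL-1b 3 h library held the top places with intervals that did not overlap, and from the 4th place down each library's interval overlapped that of the next.

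**Figure D1:**
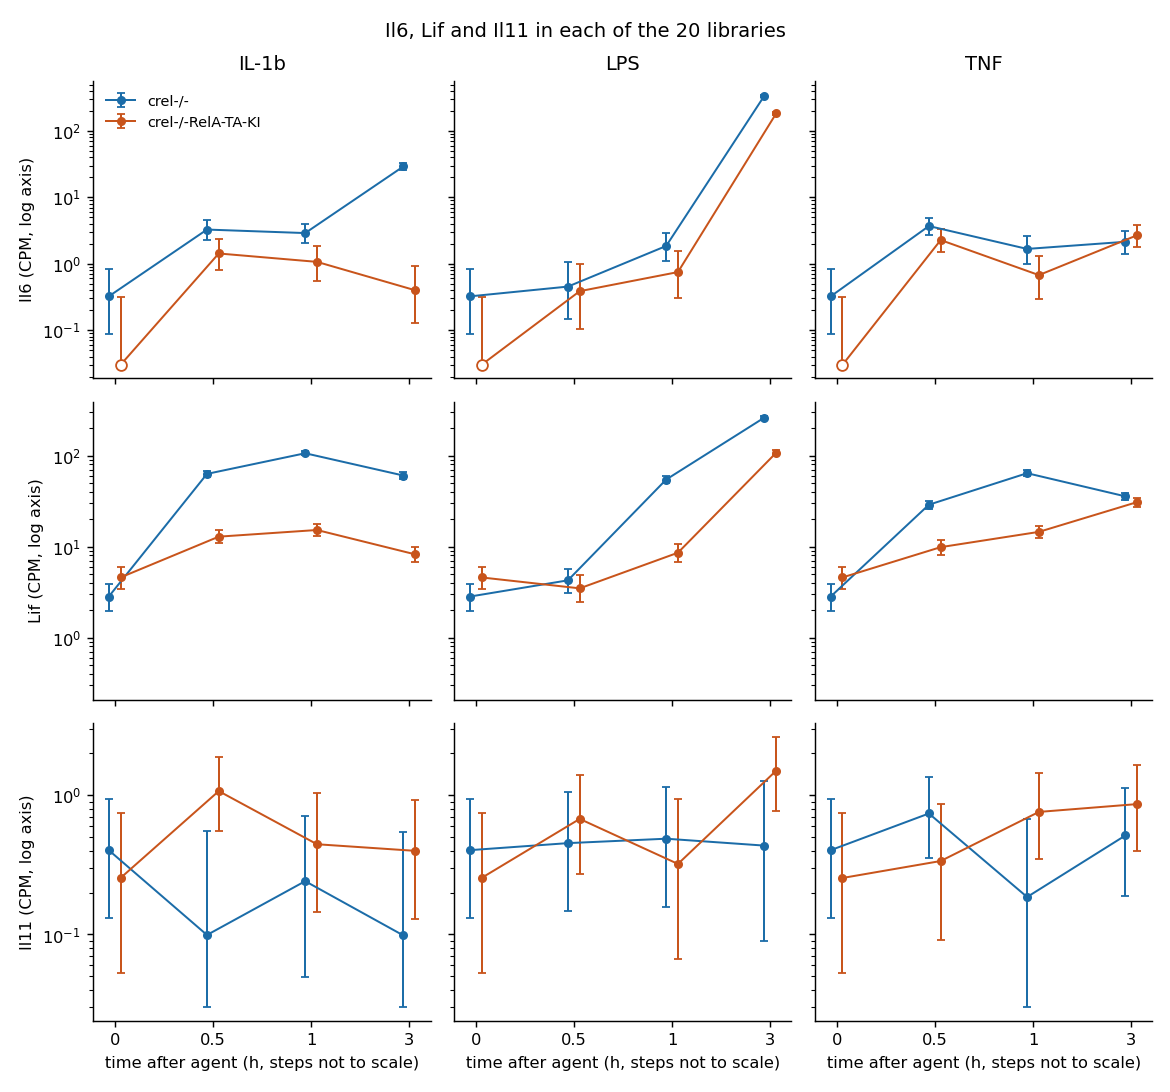
Level of Il6, Lif and Il11 (rows, CPM on log axes that differ between rows) at 0, 0.5, 1 and 3 h after IL-1b, LPS or TNF (columns), with 1 library per point, 95% counting intervals as bars and the 0 h library of each genotype repeated in every column. The open circle stands for 0 counts, drawn at the foot of the axis, and bars that run to the foot reach 0.03 CPM or less. Il6 reached 339 and 183 CPM at LPS 3 h, Lif was lower in the knock-in at all 9 stimulated points, and Il11 had no more than 12 counts in any library.

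Lif had a measurable level without stimulation, and its counts at 0.5 h of IL-1b and TNF were above those at 0 h in each genotype. At 0 h it had 35 counts in crel-/- and 54 in knock-in cells (2.82 and 4.58 CPM), the only one of the 10 conditions in which the knock-in was higher (1.62-fold, counting interval 1.04 to 2.56). Under IL-1b the crel-/- counts at 0.5, 1 and 3 h were 634, 1317 and 613 (62.9, 106 and 60.3 CPM), and the knock-in counts were 144, 171 and 103 (12.9, 15.2 and 8.21 CPM). All 3 knock-in libraries lay below all 3 crel-/- libraries. The crel-/- level peaked at 1 h, 37.6-fold above 0 h (26.9 to 54.2), where the knock-in level was 3.32-fold above its own 0 h (2.43 to 4.60).

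Under TNF the Lif time courses of the genotypes met at 3 h. The crel-/- counts were 390, 689 and 416 (28.8, 64.0 and 35.6 CPM) and the knock-in counts 117, 172 and 321 (9.86, 14.5 and 30.8 CPM). From 1 to 3 h the crel-/- level fell 1.80-fold (1.59 to 2.03) and the knock-in level rose 2.12-fold (1.76 to 2.57). The crel-/- level was 2.93-fold above the knock-in level at 0.5 h (2.37 to 3.63), 4.41-fold at 1 h (3.73 to 5.25) and 1.16-fold at 3 h (0.997 to 1.34). The last of these intervals includes equality.

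Under LPS the highest Lif level of each genotype was at 3 h. The crel-/- counts at 0.5, 1 and 3 h were 47, 559 and 1803 (4.26, 54.5 and 261 CPM), and the knock-in counts were 36, 80 and 858 (3.48, 8.56 and 107 CPM). At 0.5 h the ratio to 0 h was 1.51 in crel-/- (0.954 to 2.41) and 0.759 in knock-in cells (0.483 to 1.18), and both intervals include equality. At 1 h the genotypes differed 6.36-fold (5.03 to 8.15) and at 3 h 2.44-fold (2.24 to 2.64). From 1 to 3 h the knock-in level rose 12.5-fold (9.96 to 16.0) and the crel-/- level 4.80-fold (4.36 to 5.28). In the order of all libraries the crel-/- LPS 3 h library stood alone at the top, the knock-in LPS 3 h and crel-/- IL-1b 1 h libraries (107 and 106 CPM) could not be told apart, and the lowest 4 were the 0 h and LPS 0.5 h libraries, whose neighbours overlapped.

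Il11 stayed near the floor throughout, with 110 counts over the 20 libraries and no more than 12 in any. The crel-/- counts were 5 at 0 h, 1, 3 and 1 under IL-1b, 5, 5 and 3 under LPS and 10, 2 and 6 under TNF at 0.5, 1 and 3 h. The knock-in counts were 3 at 0 h, 12, 5 and 5 under IL-1b, 7, 3 and 12 under LPS and 4, 9 and 9 under TNF. In 7 libraries it was at or under the floor, 5 of them crel-/- and 2 knock-in. The knock-in level was the higher in 7 of 10 pairs and the lower in 3, and the counting interval of the pair excluded equality only for IL-1b 0.5 h, on 1 count against 12 (10.8-fold higher, 1.60 to 462). Within the knock-in, intervals excluded equality at IL-1b 0.5 h over 0 h (4.21-fold, 1.14 to 23.2), LPS 3 h over 0 h (5.90-fold, 1.59 to 32.6) and LPS 3 h over 1 h (4.67-fold, 1.26 to 25.8), each on 12 counts against 3. These are 3 of the 30 ratios over 0 h or between successive times, without adjustment for their number, and no fitted response of Il11 passed at 3 h.

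Compared per length, Lif was the more abundant transcript in 18 of the 20 libraries. Only in the LPS 3 h libraries did Il6 exceed Lif per kilobase of exon, at 140 against 60.1 CPM per kb in crel-/- and 75.6 against 24.7 CPM per kb in knock-in cells. Il11 lay below Lif in every library and above Il6 in 7 of them. Across the 20 libraries the log2 levels of Il6 and Lif had a Pearson r of 0.81, and 0.77 over the 18 libraries without LPS 3 h, given as a description because the libraries share agents and depth.

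**Figure D2:**
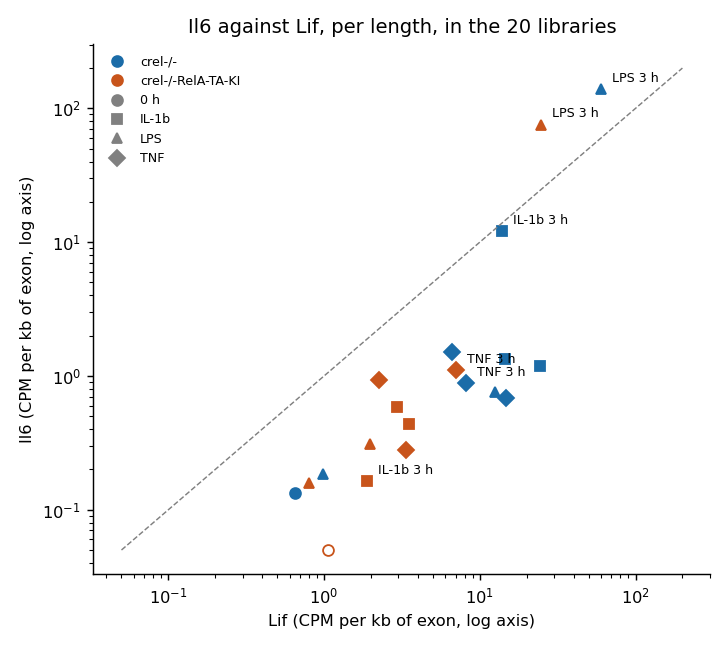
Level of Il6 (vertical) against Lif (horizontal) in CPM per kilobase of exon, on log axes, with 1 point per library, the colour giving the genotype and the shape the agent. The dashed line marks equal levels per length, the open circle is the knock-in 0 h library with 0 counts of Il6, and the 2 LPS 3 h libraries are the ones above the line.

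The responses were tested over both genotypes, 2 libraries a side, with edgeR's quasi-likelihood test and Benjamini-Hochberg adjustment over all 14023 genes at a threshold of 0.05. A response that is unequal in the genotypes is not modelled and adds to the spread. After LPS for 3 h the log2 level of Il6 rose by 10.69 (SE 1.16, adjusted p = 2.74e-05) and Lif by 5.56 (SE 0.87, adjusted p = 3.51e-04), 2 of 3 members, where 29.2% of all genes rose. At LPS 3 h against 0 h, the marker sums were 1694 and 2720 against 2607 and 3204 CPM for macrophages, 61.3 and 76.1 against 18.6 and 19.9 CPM for endothelium, and 5.13 and 11.9 against 19.5 and 63.7 CPM for neural and Schwann cells. Kdr reached 69.7 CPM in crel-/- and 54.3 CPM in knock-in libraries, and no other endothelial marker exceeded 9.15 CPM in any library. The part of the marker sums in the result was not tested. Because Il6 was at 0 to 4 counts in the 0 h libraries, its fitted fold depends on the prior count of the fit. Under IL-1b at 3 h, Il6 rose by 6.12 (SE 1.48, adjusted p = 0.013) and Lif by 2.83 (SE 0.89, adjusted p = 0.037), against 16.9% of genes. The Il6 call under IL-1b was lost without the crel-/- IL-1b 3 h library, at 1.72 (adjusted p = 0.34), and without the crel-/- 0 h library, where the log2 value was larger, at 9.11 (adjusted p = 0.14). Under TNF at 3 h, Lif rose by 3.31 (SE 0.89, adjusted p = 0.017) and Il6, at 3.85 (SE 2.03), did not pass (adjusted p = 0.17), against 18.7% of genes. Il6 passed under TNF without the crel-/- IL-1b 3 h library, at 3.79 (adjusted p = 5.32e-04).

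The calls on Lif at 3 h of IL-1b and TNF depended on single libraries. Under IL-1b its fold lay between 1.49 and 4.05 as each library was left out, and the call was lost without the crel-/- 0 h (1.49) or the crel-/- IL-1b 3 h library (2.05). Without either TNF 0.5 h library the value hardly moved (2.80) and the adjusted p was 0.053. Under TNF it lay between 2.03 and 4.58, and the call was lost without the crel-/- 0 h or the knock-in TNF 3 h library.

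At the earlier times Lif under IL-1b at 1 h was the only member called, at 3.65 (SE 0.87, adjusted p = 0.021), against 8.38% of genes, and it was lost without the crel-/- 0 h or the crel-/- IL-1b 1 h library. No member passed at 0.5 h under IL-1b, LPS or TNF, where 5.75%, 3.56% and 0.314% of genes rose, nor at 1 h under LPS or TNF, where 7.58% and 2.25% rose. DESeq2 and limma-voom both called Lif higher at IL-1b 0.5 h (2.63 and 3.63), LPS 1 h (2.31 and 3.34) and TNF 1 h (2.73 and 3.71), and DESeq2 called Il6 higher at IL-1b 0.5 h (4.08) and 1 h (3.79). Among these, Lif missed the threshold under IL-1b at 0.5 h by the least, with 3.06 (SE 0.89, adjusted p = 0.055). The fold of Il6 at 0.5 h was 3.78 (SE 2.06, adjusted p = 0.29) under IL-1b and 4.14 (SE 1.91, adjusted p = 0.81) under TNF.

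LPS exceeded the other agents at 3 h for both induced members. The log2 level of Il6 was higher under LPS than under TNF by 6.84 (SE 0.84, adjusted p = 8.94e-05) and Lif by 2.25 (SE 0.68, adjusted p = 0.020), where 24.3% of genes were higher. Against IL-1b the differences were 4.57 for Il6 (SE 0.69, adjusted p = 3.69e-04) and 2.74 for Lif (SE 0.68, adjusted p = 0.0079), where 23.8% were higher. From 1 to 3 h of LPS, Il6 rose by 7.77 (SE 0.92, adjusted p = 7.10e-05) and Lif by 2.80 (SE 0.69, adjusted p = 0.0071), against 25.9% of genes. Over the same step no member passed under IL-1b (10.6% of genes rose) or TNF (12.2%), and the Il6 value of 2.60 under IL-1b (adjusted p = 0.086) joined a rise in crel-/- to a lower count in knock-in cells. The differences of Lif were the less stable: that from TNF was lost without the crel-/- TNF 3 h library (1.49) or the knock-in LPS 3 h library, and that from IL-1b without the knock-in IL-1b 3 h library (2.28, adjusted p = 0.053). The rise of Lif from 1 to 3 h of LPS was lost without the knock-in LPS 1 h library (2.44, adjusted p = 0.054).

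Between the genotypes, Lif was lower in the knock-in. Over the 10 matched pairs, taken as replicates of the genotype difference in a model with condition and genotype, the log2 level of Lif differed by -1.74 (SE 0.34, adjusted p = 0.0074) and was lower in 9 of 10 pairs, 9 of 9 stimulated ones. It was 1 of 3 members called lower, where 7.81% of all genes were lower and 7.99% higher. Il6 was also lower in 9 of 10 pairs, by -1.47 (SE 0.49), and did not pass (adjusted p = 0.075). Its differences had an SD of 1.62 over the pairs on the log2 scale, ranging from -5.66 at IL-1b 3 h to 0.30 at TNF 3 h. Without the crel-/- IL-1b 3 h library the Il6 difference was smaller, at -0.86 (SE 0.15), and passed (adjusted p = 0.0022), and the value without the knock-in IL-1b 3 h library was the same to 2 decimals. Il11 differed by 0.74 (SE 0.37, adjusted p = 0.20). The summed level of the 6 macrophage markers was also lower in the knock-in in 10 of 10 pairs (1673 to 3150 CPM against 1733 to 3588 CPM), that of the fibroblast markers in 6 of 10, and that of the neural and Schwann markers in 10 of 10 (4.46 to 24.9 CPM against 11.3 to 63.7 CPM, 1.56-fold to 3.26-fold lower). The endothelial sum was lower in 4 of 10 pairs and the epithelial sum in 4, and the part of these markers in the result was not tested. In bulk samples, fewer cells of a type and less RNA per cell cannot be told apart.

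**Figure D3:**
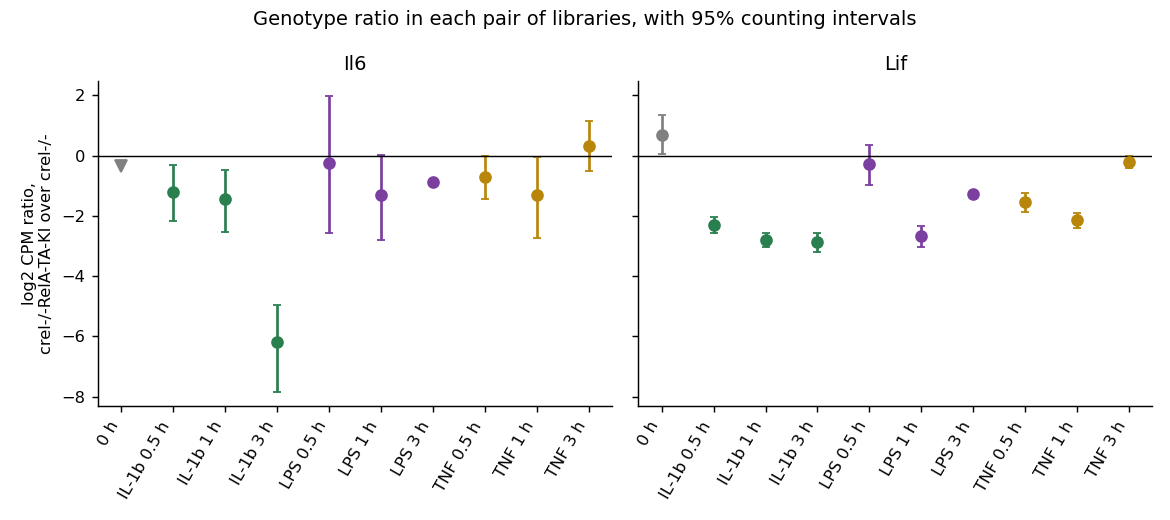
Ratio of the knock-in to the crel-/- level (log2 CPM ratio, vertical) of Il6 and Lif in each of the 10 pairs of libraries, with 95% counting intervals. The triangle marks the 0 h pair of Il6, in which the knock-in had 0 counts, at the bound that 3 counts allow. Il6 at IL-1b 3 h lies far below the other pairs, and the stimulated pairs of Lif lie below 0, with LPS 0.5 h and TNF 3 h nearest to it.

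Taken by agent, Lif was lower in the knock-in under IL-1b by -2.65 (SE 0.45, adjusted p = 0.022, 3 of 3 pairs), where 2.62% of genes were lower, and this call was lost without any 1 of the 6 IL-1b stimulated libraries (values -2.83 to -2.56). Under LPS the Lif difference was -1.60 (SE 0.48, adjusted p = 0.19) and under TNF -1.27 (SE 0.44, adjusted p = 0.18), with 1.18% and 2.34% of genes lower. Il6 differed by -3.37 under IL-1b (SE 0.77, adjusted p = 0.061), -0.90 under LPS (SE 0.58, adjusted p = 0.58) and -0.44 under TNF (SE 0.79, adjusted p = 0.83), and the LPS value passed (adjusted p = 0.013) once the crel-/- IL-1b 3 h library was left out. The IL-1b value of Il6 ranged from -4.30 to -1.30 as each library was left out, and was smallest without the knock-in IL-1b 3 h library. Taken by time, no member passed at 0.5, 1 or 3 h, where 1.32%, 2.02% and 8.35% of genes were lower. Lif came nearest at 1 h, with -2.53 (SE 0.50, adjusted p = 0.051). Once the crel-/- IL-1b 3 h library was left out, Il6 was called lower at 1 h (-1.36, adjusted p = 0.036) and 3 h (-0.77, adjusted p = 0.0035) and Lif at 1 h (-2.54, adjusted p = 0.013).

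Whether the genotype difference itself differed between agents or times was tested by interaction, and no member passed. The difference in stimulated cells minus that at 0 h was called for 0.00% of genes (450 genes had an unadjusted p under 0.05, DESeq2 called 6 and limma-voom 0), and the value for Lif was -2.56 (SE 1.40, adjusted p = 1). For Il6, with 0 counts in the knock-in at 0 h, the value was in the other direction, at 3.41 (SE 8.61). The difference at 3 h minus that at 0.5 h was called for 3.44% of genes. Between agents, LPS minus TNF was called for 0.0214% of genes, LPS minus IL-1b for 0.00% (572 genes had an unadjusted p under 0.05, DESeq2 called 23 and limma-voom 3) and IL-1b minus TNF for 0.349%. For Il6 the genotype difference under IL-1b minus that under TNF was -2.93 (SE 1.16, adjusted p = 0.48), and LPS minus IL-1b was 2.47 (SE 1.01, adjusted p = 1). These values were -0.86 and 0.41 without the crel-/- IL-1b 3 h library. The 73.3-fold ratio of Il6 at IL-1b 3 h and the 1.85-fold ratio at LPS 3 h (1.73 to 1.98) are thus each a single pair of libraries, and the tests did not separate the agents.

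Of the 8 other gp130 ligand genes, 6 were tested (Cntf and Ctf2 were not), and 3 were lower in the knock-in and none higher (median -0.20, all genes 0.00). Of all genes, 7.81% were lower and 7.99% higher. The lower ligand genes included Il27, a subunit of interleukin 27, at -2.64 (SE 0.38, adjusted p = 4.59e-04), and Ctf1, cardiotrophin 1, at -0.34 (adjusted p = 0.0039). Il27 was at or under 3 counts in 16 libraries and rested on LPS 3 h, where it had 61.3 CPM in crel-/- and 7.50 CPM in knock-in cells. Without the crel-/- LPS 3 h library, 1 of the 6 ligands was lower. Osm, the neighbour of Lif, differed by 0.48 (SE 0.21, adjusted p = 0.15) and was the higher in the knock-in in 6 of 10 pairs. Its time course differed from that of Lif: under LPS it had 4.62, 4.19 and 1.74 CPM at 0.5, 1 and 3 h in crel-/- and 7.24, 7.81 and 1.38 CPM in knock-in cells. At 3 h of LPS, 5 of the 6 tested ligands rose, among them Il27 by 7.88 and Osm by 2.18, and Ctf1 fell by 0.44, where 29.2% of all genes rose and 28.3% fell. Under IL-1b at 3 h Ctf1 fell by 0.63 (13.8% of genes fell). At 3 h of TNF, 18.7% of all genes rose. Under TNF at 3 h Osm (2.13) and Ebi3 (0.95) rose and Ctf1 fell by 0.91 (16.0% of genes fell), and neither rise passed without the crel-/- 0 h library, with fewer than 2 rising in 14 of the 20 fits that left out a library. Without the crel-/- LPS 3 h library 3 of the 5 ligands still counted as higher under LPS.

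Among the 7 receptor genes, 2 were lower in the knock-in and none higher (median -0.03), where 7.81% of all genes were lower and 7.99% higher. Il6st, encoding gp130, differed by -0.29 (SE 0.08, adjusted p = 0.031) and was lower in 10 of 10 pairs, with 1780 against 960 CPM at IL-1b 3 h and 882 against 844 CPM at 0 h. Il11ra1 differed by -0.22 (adjusted p = 0.0011). All 7 receptor genes were measured, with Il6st between 826 and 1802 CPM and Il6ra between 15.1 and 53.0 CPM. With LPS for 3 h, Osmr, encoding the oncostatin M receptor, rose by 3.06 (SE 0.37), Lifr by 1.79 (SE 0.24) and Il6st by 0.83 (SE 0.18), and Il6ra fell by 1.16 (SE 0.23) and Cntfr, encoding the receptor of ciliary neurotrophic factor, by 0.83 (SE 0.27), each past the threshold. At 3 h of IL-1b, Osmr (1.66), Lifr (0.84) and Il6st (0.63) rose, and at 3 h of TNF Osmr (1.29), and none of these rises passed without the crel-/- 0 h library. The LPS 3 h directions are relative to the scaling: with library totals alone the median of all genes moved by -0.60, and Il6st, at 0.23, no longer passed.

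**Figure D4:**
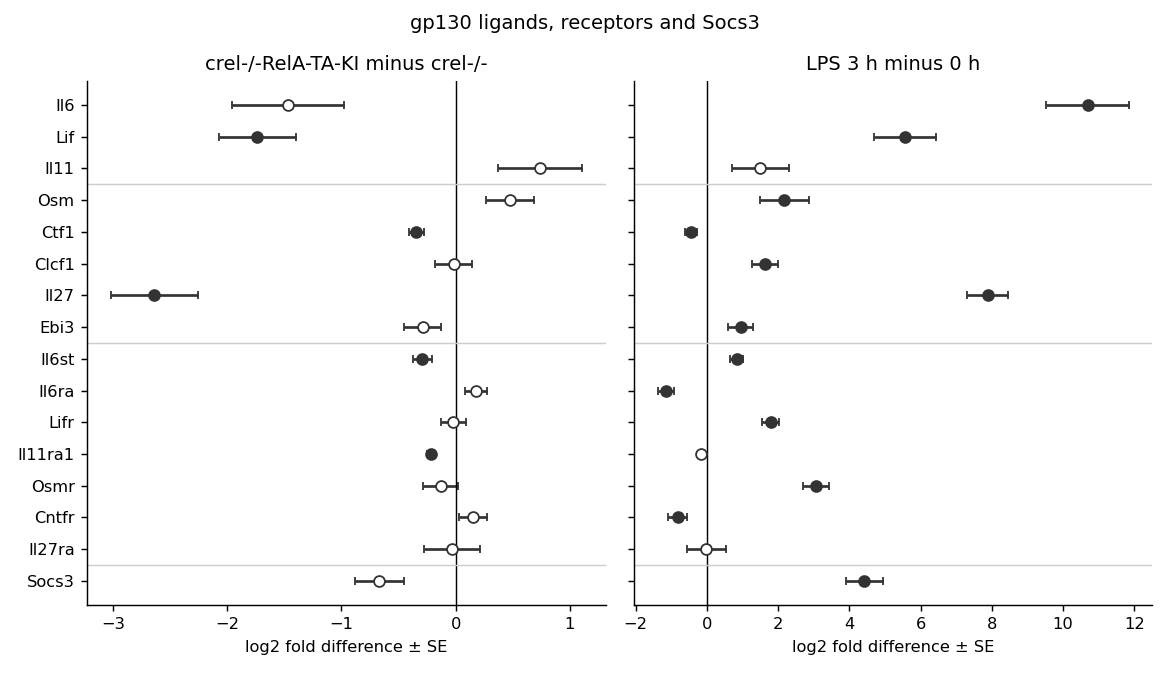
Fitted log2 difference ± SE (horizontal) of the 3 cytokines, Osm, Ctf1, Clcf1, Il27, Ebi3, the receptors and Socs3, for the knock-in minus crel-/- (left) and for LPS 3 h minus 0 h (right), on different horizontal scales. Filled points passed the threshold of 0.05 after adjustment over all genes and open points did not. Il27 and Lif lie lowest among the filled points on the left, and Il6, Il27 and Lif highest on the right.

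Downstream of the receptors, 3 of 8 signal transducers were lower in the knock-in and none higher (median -0.20), among them Stat5a at -0.72 and Stat5b at -0.19. Of all genes, 7.81% were lower and 7.99% higher. Stat3 had no call. At 3 h of LPS 7 of the 8 rose (29.2% of all genes), led by the kinase Jak2 (3.27). With library totals alone 6 rose and Ptpn11, a phosphatase, turned from a rise of 0.42 to a fall (-0.18, adjusted p = 0.0030). Of the 8 inhibitors, Socs2 (-0.48) and Ptpn2 (-0.30), a phosphatase, were lower in the knock-in and none was higher (median -0.25), against the same shares of all genes. Socs3, the feedback inhibitor of gp130, differed by -0.67 (SE 0.21) and did not pass (adjusted p = 0.064). DESeq2 (-0.66, adjusted p = 0.0039) and limma-voom (-0.70, adjusted p = 0.016) called Socs3 lower. It had 84.6 CPM in crel-/- and 21.8 CPM in knock-in cells at IL-1b 3 h, and 407 against 280 CPM at LPS 3 h. At 3 h of LPS 5 inhibitors rose, among them Socs1 (6.12) and Socs3 (4.42), and 2 fell (3 with library totals alone), where 29.2% of all genes rose and 28.3% fell.

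Of 16 known STAT3 target genes, 5 were lower in the knock-in and none higher (median -0.43), where 7.81% of all genes were lower and 7.99% higher. Saa3, an acute phase protein of interleukin 6 signalling, had 0 counts in all 10 knock-in libraries and up to 711 counts in crel-/- libraries, and Lcn2, an iron-binding acute phase protein, differed by -5.58 (SE 0.50). Lcn2 was at or under 3 counts in 7 of 10 crel-/- and 8 of 10 knock-in libraries, and its highest knock-in count was 5. The others were Bcl3 (-1.59), Pim1 (-0.90) and Cebpb (-0.73). Several of these genes are also known targets of NF-kB. The count of genes lower in the knock-in was 10 with DESeq2, 9 with limma-voom and 4 without the filter on low counts. As each library was left out it ran from 4 to 8, the latter without the crel-/- IL-1b 3 h library. All 16 rose at 3 h of LPS, where 29.2% of all genes rose (median 3.06, all genes -0.01, 15 with DESeq2, 13 with library totals alone). For Saa3 this rise was in crel-/- cells alone. At 3 h of IL-1b 12 rose (16.9% of all genes) and at 3 h of TNF 11 (18.7%), with none falling under any agent. Without the crel-/- 0 h library these counts were 12, 3 and 6, and the IL-1b count also fell by more than 1.5 times without the crel-/- IL-1b 3 h library.

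Where 7.81% of all genes were lower in the knock-in and 7.99% higher, the 16 regulators of Il6 transcription and mRNA included 4 that were lower and none higher (median -0.40). They were Zc3h12a, which encodes the RNase Regnase-1 that degrades Il6 mRNA (-0.93, SE 0.19, adjusted p = 0.0078, lower in 10 of 10 pairs), Cebpb (-0.73), Rel (-0.41) and Rela (-0.37). Rel is the gene of c-Rel, which every culture lacked, and Rela is the gene that carries the knock-in. At LPS 3 h Zc3h12a had 180 CPM in crel-/- and 44.9 CPM in knock-in cells. All 16 rose at 3 h of LPS (median 3.25, where 29.2% of all genes rose), led by Nfkbiz (5.49), a nuclear cofactor of NF-kB needed for Il6 induction, and Arid5a (4.48), which stabilises Il6 mRNA, and 12 rose at 3 h of IL-1b and 11 at 3 h of TNF (4 and 6 without the crel-/- 0 h library, and over 1.5 times fewer also without the crel-/- IL-1b 3 h or the knock-in TNF 3 h library). Of all genes, 16.9% rose at 3 h of IL-1b and 18.7% at 3 h of TNF. With library totals alone 13 of the 16 regulators rose at 3 h of LPS and Elavl1, which encodes an RNA-binding protein, turned from a rise of 0.34 to a fall (-0.27, adjusted p = 0.0057). With DESeq2 and with limma-voom 9 were lower in the knock-in, and without the filter on low counts 3. As each library was left out the count ran from 3 to 8, the latter without the crel-/- 0 h library. Among 10 receptors and adaptors of the agents, Myd88 (-0.48), Il1rn (-0.29), the interleukin 1 receptor antagonist, and Il1rap (-0.28) were lower and Ticam1 (0.31) was higher in the knock-in, against 7.81% and 7.99% of all genes. Tlr4, the LPS receptor, Il1r1 and Tnfrsf1a, receptors of IL-1b and TNF, had counts in every library and no call between genotypes.

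The genes most like Il6 over the 20 libraries were Ppp1r15b (r = 0.94), Ch25h (0.92), Socs2 (0.92), Foxf1 (0.92) and Ogfr (0.92), by Pearson r of log2 CPM. Without the LPS 3 h libraries these values were 0.70 to 0.82. Of these 5 genes, 2 stayed among the 5 most like Il6 with a prior count of 0.5, and 3 with library totals. The genes most like Lif were Ccl7 (0.95), Rnd1 (0.93), Sele (0.93), Ccl2 (0.93) and Has1 (0.92), and without the LPS 3 h libraries 0.90 to 0.94. All 5 stayed among the 5 most like Lif in both of those settings. Ccl2 and Ccl7 encode chemokines that draw monocytes, Sele an endothelial adhesion molecule and Has1 a hyaluronan synthase. These genes were chosen on the same libraries that carry the genotype difference. Their calls between genotypes thus depend on the choice and are given only as a description. The 5 most like Lif were all called lower in the knock-in, where 7.81% of all genes were. The values were -1.63 for Ccl7, -4.03 for Rnd1, -3.03 for Sele, -2.29 for Ccl2 and -0.80 for Has1. Of the 5 most like Il6, Socs2 (-0.48) and Foxf1 (-0.54) were called lower. For Il11 no r exceeded 0.72, and in counts this sparse that is no finding.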

How the data were processed

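RNA-seq of polyA RNA from 20 libraries (single-end reads of 50 bp, stranded kit, per the labels' protocols) was analysed from whole-number counts per gene, which the authors deposited as 1 table, not normalized. Per the submitters' processing notes, cutadapt 1.12, STAR, featureCounts 1.5.1 and DESeq2 were used with mm10. No source used here gives the annotation release or strand setting.

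Of 45706 identifiers, 45143 matched a symbol. Genes with at least 1 CPM of the library total in at least 2 libraries (14023, with 99.9% of counts) were tested with edgeR 4.0.16 in R 4.3.3: TMM scaling, robust quasi-likelihood fit, Benjamini-Hochberg adjustment, threshold 0.05. The fit kept the default prior count of edgeR, and a prior count of 2 was used only for log2 levels of single libraries. The genotype difference came from a model with condition and genotype (9 residual degrees of freedom), and genotype was nested in time or agent for the other tests (6; 8 for stimulated against 0 h). SE is the fold divided by the square root of F. Single-pair ratios carry 95% exact counting intervals and no test. The script was tested on simulated data.

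The members and gene lists were chosen with earlier results of these data known. The 3 cytokines are always named, with the called genes of each list in the genotype difference, the 2 largest folds of each list at 3 h, any gp130 ligand or receptor, Socs3, and the 5 genes with the highest correlation with each member. Alternatives were DESeq2 1.42.0, limma-voom (limma 3.58.1), RLE factors, library totals, no filter on low counts, leaving out each library, a prior count of 0.5 and library totals for levels. Promoters were RefSeq windows on GRCm38.p6, searched for fixed motifs on both strands. No protein sequence was used here. Some genes of the lists are counted in the totals and not reported singly here.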

Additional observations from a re-analysis of the deposited data

How the results depend on the processing

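Under the 25 alternatives of each test (5 other settings and 20 fits that leave out 1 library), the calls on Il6 and Lif at LPS 3 h, on Lif between genotypes and on Il6 under LPS against TNF, against IL-1b and against 1 h were kept in all 25. With library totals alone the median of all genes moved by -0.60 at LPS 3 h and by -0.16 and -0.14 at IL-1b and TNF 3 h, and the called genes at LPS 3 h split into 1707 higher and 9108 lower in place of 4099 and 3962. The splits were 1319 and 3787 (2365 and 1941) at IL-1b 3 h, 1573 and 3704 (2618 and 2243) at TNF 3 h, 1585 and 7862 (3406 and 3360) for LPS minus TNF, 1491 and 7737 (3337 and 3285) for LPS minus IL-1b and 1583 and 8349 (3631 and 3545) for LPS 3 h minus 1 h. The cause of the changes below was not tested.

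With DESeq2, calls were gained for Il6 between genotypes (-1.38), at TNF 3 h (4.46) and between genotypes under IL-1b (-2.66), at IL-1b 0.5 h (4.08) and 1 h (3.79), and for Lif between genotypes at 1 h (-2.54), 3 h (-1.44), under LPS (-1.46) and under TNF (-1.31) and at IL-1b 0.5 h (2.63), LPS 1 h (2.31) and TNF 1 h (2.73). With limma-voom they were gained for Il6 between genotypes (-1.16) and under IL-1b (-3.48), and for Lif between genotypes at 1 h (-2.54), 3 h (-1.33) and under LPS (-1.55) and at IL-1b 0.5 h (3.63), LPS 1 h (3.34) and TNF 1 h (3.71), and lost for Il6 at IL-1b 3 h (5.47). Library totals gained Lif between genotypes at 1 h (-2.55). Without the filter the calls on Lif at IL-1b 3 h (2.80) and between genotypes under IL-1b (-2.64) were lost. Directions turned for Lif in the genotype difference at 3 h minus 0.5 h with DESeq2 (-0.027) and at LPS 0.5 h (0.33) and TNF 3 h minus 1 h (-0.23) with limma-voom, all uncalled.

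Leaving out each library in turn, Il6 ranged from -1.86 to -0.86 between genotypes, 1.72 to 9.11 at IL-1b 3 h, 3.03 to 6.85 at TNF 3 h, -1.39 to -1.29 between genotypes at 1 h, -3.29 to -0.76 at 3 h and -0.99 to -0.86 under LPS. Lif ranged from 1.49 to 4.05 at IL-1b 3 h, 2.03 to 4.58 at TNF 3 h, 1.49 to 3.23 for LPS minus TNF, 2.28 to 3.53 for LPS minus IL-1b, -2.75 to -2.37 between genotypes at 1 h, -1.86 to -0.83 at 3 h and -2.83 to -2.56 under IL-1b. Signs turned, uncalled before, for Il11 at IL-1b 3 h (-1.28 to 0.36), for Il6 in IL-1b minus TNF at 3 h (-2.07 to 3.23), IL-1b 3 h minus 1 h (-1.79 to 3.51) and the genotype difference at 3 h minus 0.5 h (-2.44 to 0.080), and for Lif at LPS 0.5 h (-1.35 to 1.20), in IL-1b minus TNF at 3 h (-1.30 to 0.44), TNF 3 h minus 1 h (-0.77 to 0.96) and the genotype difference at 3 h minus 0.5 h (-0.17 to 0.91) and LPS minus TNF (-0.80 to 0.27). The smallest genotype differences of Il6 over all pairs and at 3 h came without the knock-in IL-1b 3 h library, and its highest folds over 0 h without the crel-/- 0 h library. Without the crel-/- IL-1b 3 h library Il6 was also called at IL-1b 0.5 h (3.74), IL-1b 1 h (3.51), LPS 1 h (2.91), TNF 0.5 h (4.10), TNF 1 h (2.75) and TNF 3 h (3.79), and between genotypes over all pairs (-0.86), at 1 h (-1.36), at 3 h (-0.77) and under LPS (-0.90).

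Counts over all genes moved by more than 1.5 times in the interactions, from 0, 3, 0 and 49 to 6, 8, 23 and 108 with DESeq2 for stimulated minus 0 h, LPS minus TNF, LPS minus IL-1b and IL-1b minus TNF, and to 2, 11, 3 and 110 without the filter. TNF 0.5 h had 55 calls and 163 with DESeq2. LPS minus IL-1b had 3 with limma-voom. Library totals gave 3300, 1359 and 2969 at IL-1b 1 h, LPS 0.5 h and LPS 1 h in place of 2174, 844 and 1916. None of the 60 recomputed single-pair log2 differences moved beyond its counting interval. The labels give no replicate numbers, and the pairing by agent and time is part of the genotype model. Depth limits Il11 and Il6 before 3 h.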
